A study of Mus musculus with 20 samples.

Results

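The leukocyte integrins and homing adhesion molecules described here are 9 genes, taken by symbol: the integrin chains Itga4, Itgal, Itgam, Itgax, Itgb1, Itgb2 and Itgb7, the hyaluronan receptor Cd44 and the selectin ligand Selplg. All 9 were listed in both expression tables of the study, which together name 19054 genes. Their RNA was measured in 6 groups of cells from mouse brains 3 days after permanent photothrombosis, a stroke model in which light and a photosensitive dye close vessels of the cortex. In Cxcr4-GFP mice, GFP-positive monocytes and GFP-negative microglia were compared (4 libraries each). In Cxcr4CreER mice, TdT-positive monocytes of conditional Cxcr4 knockout (KO) mice, TdT-positive monocytes of control mice, TdT-negative microglia of KO mice and TdT-negative microglia of control mice were compared (3 libraries each). Controls and KO mice thus both carry the inducible Cre allele named for Cxcr4, and the labels give no tamoxifen schedule, age or sex. The populations were separated by a Cxcr4-linked signal, so population and reporter signal coincide, and KO microglia are TdT-negative cells of KO animals in which a deletion of Cxcr4 is not shown. Titles of the GFP libraries carry the tag BrKo, as those of the KO libraries do, and the labels do not explain it. Each GFP pair came from the same animal or pool (1 pair from 2 mice, 1 from 5 mice and 2 from single mice), and 2 KO and 2 control animals gave both populations.

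Integrins are heterodimers of an alpha and a beta chain that leukocytes use to stop on vessel walls and to crawl through tissue. The alpha chain Itga4 pairs with Itgb1 to bind the endothelial receptor VCAM-1 and fibronectin, and with Itgb7 to bind the gut address molecule MAdCAM. Itgb2 is the shared beta chain of LFA-1 (with Itgal), Mac-1 or CD11b (with Itgam) and CD11c integrin (with Itgax), which bind ICAMs and complement fragments. Selplg, the protein PSGL-1, carries sugars that selectins hold during rolling, and Cd44 binds hyaluronan in the matrix and on endothelium. Microglia settle in the brain during development and carry CD11b throughout life, whereas monocytes enter from the blood after injury.

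Values are normalized counts, that is reads divided by a size factor per library. The GFP and Cre tables were normalized separately and come from different library kits, so no level is compared between them. Libraries held 0.617 to 14.9 M reads in the GFP table and 9.73 to 56.8 M in the Cre table, and 1 read equals 0.104 to 2.58 and 0.375 to 2.19 normalized counts. The ribosomal RNA precursor Rn45s, which the Cre table does not list, made 22.1% (GFP microglia 4) to 48.3% (GFP microglia 2) of the counts of GFP libraries. Few genes were detected in GFP monocytes 3 (3029), GFP microglia 3 (5598) and GFP microglia 4 (3489), while 10422 to 14498 were detected elsewhere in that table. Folds of the members tested in the GFP table are therefore also given with these 3 libraries left out. GFP monocytes 3 had no read of Ccr2, the chemokine receptor that marks inflammatory monocytes, which stood at 679 to 1777 in the other GFP monocytes. Ccr2 was at 10337 to 16514 in Cre monocytes and at 5.98 to 120 in Cre microglia, and the microglial receptor P2ry12 at 1025 to 1631 in Cre monocytes and 21777 to 37799 in Cre microglia. Summed over 8 microglial markers, Cre monocytes had 19359 to 31499 and Cre microglia 166905 to 281697, and GFP monocytes 534 to 2075 and GFP microglia 11896 to 19862. Cxcr4, the targeted gene, had 784, 1010.3 and 536 normalized counts in KO monocytes, against 1183, 1332 and 1166 in control monocytes. All 3 KO values were below all 3 control values, yet the difference was not called (log2 -0.70, SE 1.10, adjusted p 0.962). A value per gene does not say which exons of Cxcr4 were lost. KO microglia had 1 read of Cxcr4 in all and control microglia had 8.

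The 9 genes split into those carried mostly by monocytes, those carried mostly by microglia and those shared by both. Itga4 was called higher in monocytes than in microglia, and Selplg lower, in all 3 designs. Cd44 was called higher in GFP and control animals, Itgb7 higher in control animals and Itgam lower in KO and control animals. Itgal, Itgax and the beta chains Itgb1 and Itgb2 were called in none. For GFP monocytes against GFP microglia, 8 members passed the filter on low values, and limma called 2 higher and 1 lower, where 0.908% of 7706 tested genes were called (0.415% higher and 0.493% lower). Between KO monocytes and KO microglia 1 of 9 was called higher and 2 lower, where 6.83% of 12432 genes were called (3.85% higher and 2.98% lower). Between control monocytes and control microglia 3 were called higher and 2 lower, where 6.52% were called (3.46% higher and 3.06% lower). DESeq2, given beside some results as an alternative, called 2.35%, 12.6% and 13% of genes in GFP, KO and control animals. Groups did not overlap for 6 of 8 members in the GFP table (9.41% of tested genes), for 7 of 9 between KO monocytes and KO microglia (27.5%) and for 7 of 9 between control monocytes and control microglia (22.1%). The KO and control comparisons have no libraries in common, but they share 1 fit and so 1 estimate of the spread. In bulk samples, fewer cells of a type and less RNA per cell cannot be told apart.

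**Figure D1:**
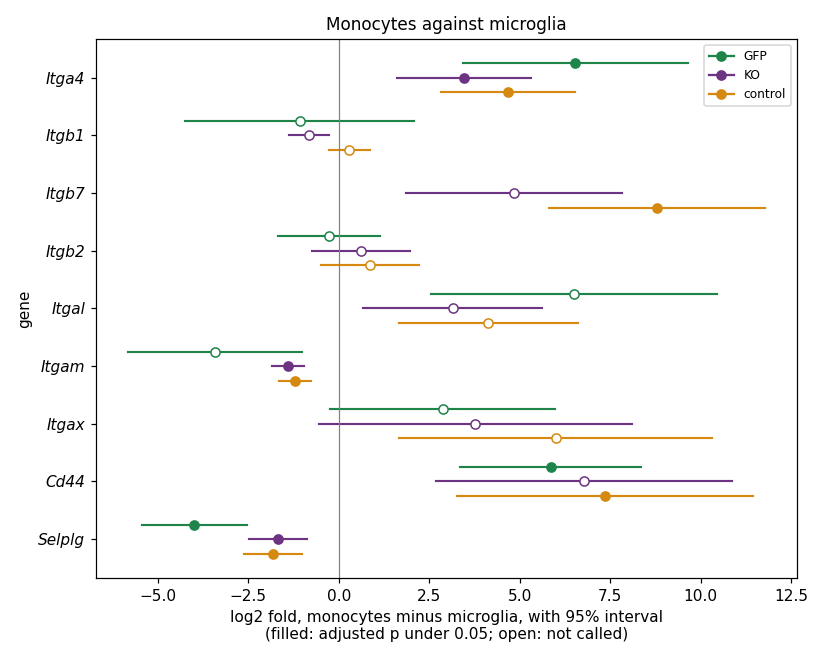
Log2 fold of monocytes minus microglia (x axis) for each gene (y axis) in GFP, KO and control animals, with 95% intervals. Filled points passed an adjusted p under 0.05, open points did not, and Itgb7 was not tested in the GFP table. Itga4 lies to the right of 0 and Selplg to the left in all 3 comparisons, each filled.

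Promoters of 6 of the 9 genes (Itga4, Itgam, Itgax, Itgb1, Itgb7 and Cd44) were found by symbol among RefSeq sequences of the mouse build GRCm38.p6. The windows shown run from 250 bases before to 30 bases after the annotated start, and are given for 3 genes higher in monocytes and for Itgam, higher in microglia, so that the regions can be set side by side. Capitals mark matches, on either strand, to the core letters GAGGAA (PU.1, the factor of myeloid cells; TTCCTC on the other strand), TGTGGT (RUNX; ACCACA) and GGGCGG (Sp1 GC box; CCGCCC), none of which overlap here.
Itga4 promoter, chr2:79255176-79255455 (plus strand): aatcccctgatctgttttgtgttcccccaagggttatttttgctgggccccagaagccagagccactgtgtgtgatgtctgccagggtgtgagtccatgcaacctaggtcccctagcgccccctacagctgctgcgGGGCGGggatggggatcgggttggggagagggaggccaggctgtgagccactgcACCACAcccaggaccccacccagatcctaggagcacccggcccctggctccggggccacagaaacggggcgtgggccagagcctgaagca
Itgb7 promoter, chr15:102231906-102232185 (minus strand): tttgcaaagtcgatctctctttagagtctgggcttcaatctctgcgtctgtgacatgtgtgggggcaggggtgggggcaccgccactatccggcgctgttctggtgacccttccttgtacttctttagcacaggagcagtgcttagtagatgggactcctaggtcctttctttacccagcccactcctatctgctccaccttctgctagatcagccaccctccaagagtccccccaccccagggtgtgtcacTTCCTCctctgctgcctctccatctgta
Itgam promoter, chr7:128062390-128062669 (plus strand): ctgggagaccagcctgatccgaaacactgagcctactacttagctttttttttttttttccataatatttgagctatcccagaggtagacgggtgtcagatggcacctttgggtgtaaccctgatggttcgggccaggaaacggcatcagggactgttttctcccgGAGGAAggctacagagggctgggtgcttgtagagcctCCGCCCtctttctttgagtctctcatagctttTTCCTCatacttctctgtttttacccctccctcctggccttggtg
Cd44 promoter, chr2:102901636-102901915 (minus strand): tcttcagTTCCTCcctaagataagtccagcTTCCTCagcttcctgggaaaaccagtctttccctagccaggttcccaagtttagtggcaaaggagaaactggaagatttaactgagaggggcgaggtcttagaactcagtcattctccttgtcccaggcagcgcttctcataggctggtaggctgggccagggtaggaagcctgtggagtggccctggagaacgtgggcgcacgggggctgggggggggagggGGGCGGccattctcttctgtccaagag
GAGGAA occurred in 4 of the 6 windows (Itgam, Itgb1, Itgb7 and Cd44) and in 26% of 32851 promoter windows of the same length. TGTGGT occurred in Itga4 and Itgax and in 15.6% of all windows, and GGGCGG in Itga4, Itgam, Itgb1 and Cd44 and in 34.7% of all. Itgam held GAGGAA starting at base -84 and TTCCTC starting at base -15, counted from the annotated start, while in Itgb7 the match began at base 3 after the start. Of the 4 windows shown, those of Itgb7, Itgam and Cd44 held the PU.1 letters and that of Itga4 did not. A match is a description of letters and not a binding site.

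Itga4, the alpha chain shared by the VCAM-1 and MAdCAM receptors, was the integrin whose rise in monocytes passed the test in all 3 comparisons. GFP monocytes had 741, 915, 435 and 771 normalized counts and GFP microglia 90.4, 32.7, 0 and 0. Every monocyte library was above every microglia library, also in the shallow library GFP monocytes 3. The log2 fold on the log2(value + 1) scale was 6.54 (SE 1.51, adjusted p 0.0276). With GFP monocytes 3 and GFP microglia 3 and 4, the last pair being the libraries at 0, left out, the log2 fold was 3.86 (adjusted p 2.79e-05). In all GFP libraries the call was lost without the filter on low values (adjusted p 0.0894) and with upper quartile scaling (0.262). A block for animal or pool gave an adjusted p of 0.0508, and it was 0.0503 to 0.0952 without GFP monocytes 1, 2, 3 or 4 or GFP microglia 3 or 4, each left out in turn. In the Cre table, KO monocytes had 971, 456 and 1012, against 26.4, 139 and 87.9 in KO microglia. The lowest KO monocyte library still stood above the highest KO microglia library (log2 3.46, SE 0.85, adjusted p 0.0305). This call was lost in edgeR (adjusted p 0.0507) and without KO monocytes 1, KO monocytes 3, KO microglia 1 or KO microglia 3, with adjusted p of 0.0709 to 0.114. Control monocytes had 958, 1652 and 1446, against 18.3, 147 and 47.8 in control microglia, again without overlap (log2 4.67, SE 0.85, adjusted p 0.00669). The mean ratio of monocytes to microglia was 23.2 in GFP, 9.64 in KO and 19.1 in control animals.

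Itgb1, the beta chain that Itga4 uses for VCAM-1 and that pairs with many other alpha chains, did not follow it. GFP monocytes had 533, 410.4, 0 and 381 and GFP microglia 480.4, 546, 20 and 299, so the groups overlapped (log2 -1.08, SE 1.54, adjusted p 0.999). The log2 fold was 1.12 without GFP monocytes 3, the library at 0, and -0.23 with GFP microglia 3 and 4 left out as well. KO monocytes had 2058, 1956 and 1847, against 3543, 3689 and 3166 in KO microglia. These groups did not overlap, with KO monocytes lower, but the difference was not called (log2 -0.83, SE 0.26, adjusted p 0.0863). It was called in DESeq2 (adjusted p 0.00248) and with CPM scaling (0.0339). Control monocytes had 3314, 2491 and 2582, against 1877, 2237 and 2776 in control microglia, and overlapped (log2 0.29, SE 0.26, adjusted p 0.595).

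Itgb7, the beta chain of the gut-homing integrin, was low in microglia and in the GFP table, with a wide spread among libraries. GFP monocytes had 42.6, 84.9, 0 and 43.6 and GFP microglia 5.17, 3.87, 0 and 0, from 11 reads in microglia in all. It reached 10 normalized counts in only 3 GFP libraries and so was not tested there. KO monocytes had 1606, 668 and 882, against 186, 1.87 and 72.4 in KO microglia, where the middle value is a single read. The groups did not overlap, and the difference missed the threshold (log2 4.85, SE 1.37, adjusted p 0.0568). It passed without KO microglia 1 (adjusted p 0.0382), in DESeq2 (0.0142), with a pseudocount of 10 (0.0237) and with CPM scaling (0.0288). Control monocytes had 673, 252 and 508, and control microglia had no read in any of 3 libraries. The difference was called in limma (log2 8.79, SE 1.37, adjusted p 0.00256). Against a floor of 3 reads over the microglia group, the mean of control monocytes was at least 564-fold higher. This bound was 448-fold to 696-fold with each control monocyte library left out in turn. It covers counting error in microglia and not the spread among monocyte libraries.

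Itgb2, the chain that Itgal, Itgam and Itgax all need, was high in both populations. GFP monocytes had 507, 669, 126 and 553, against 475, 544, 577 and 342 in GFP microglia. KO monocytes had 7281, 5544 and 3700.0, against 3017, 3502 and 3913 in KO microglia, and control monocytes 4806, 2177 and 5157, against 657, 5261 and 2595 in control microglia. Values overlapped in each comparison. The log2 folds were -0.28 (95% interval -1.69 to 1.13), 0.62 (-0.75 to 1.98) and 0.86 (-0.50 to 2.23), with adjusted p of 0.999, 0.663 and 0.5002, and the GFP fold was 0.27 without GFP monocytes 3 and 0.17 with GFP microglia 3 and 4 left out as well.

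Itgal, the alpha chain of LFA-1, stood higher in monocytes without passing the test in any of the 3 comparisons. GFP monocytes had 153, 205, 100.4 and 172, while reads in GFP microglia were found in a single library (0, 7.32, 0 and 0). The groups did not overlap (log2 6.50, SE 1.92, adjusted p 0.127). The adjusted p was 0.0003 with GFP monocytes 3 and GFP microglia 3 and 4 left out, 0.000755 in DESeq2 and 0.0351 with a pseudocount of 10. KO monocytes had 439.9, 929.6 and 621, against 31, 234 and 47.4 in KO microglia (log2 3.15, SE 1.13, adjusted p 0.136). Control monocytes had 364, 1446 and 632, against 43.6, 174 and 6.83 in control microglia (log2 4.14, SE 1.13, adjusted p 0.051). Neither pair overlapped, and in the control pair DESeq2 gave an adjusted p of 0.0102, while leaving out control microglia 2 gave 0.0219. For the same pair a pseudocount of 10 gave an adjusted p of 0.0393, and leaving out KO microglia 2 gave 0.0493.

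Itgam, the alpha chain of CD11b, ran the other way and was higher in microglia. KO monocytes had 3886, 3604 and 4095, against 11452, 10478 and 8718 in KO microglia (log2 -1.40, SE 0.20, adjusted p 0.00168). Control monocytes had 3748, 3496 and 4029, against 9232, 9547 and 7476 in control microglia (log2 -1.21, SE 0.20, adjusted p 0.00409). All monocyte values lay in a narrow band below all microglia values, at ratios of 0.378 and 0.429. GFP monocytes had 922, 1226, 1.32 and 1139, against 2348, 2817, 2007 and 3051 in GFP microglia. The third GFP monocyte library held a single Itgam read, and it decides the size of that log2 fold, which was -3.43 (SE 1.17, adjusted p 0.2505) with it and -1.21 (adjusted p 0.0401) without it. With GFP microglia 3 and 4 left out as well it was -1.24 (adjusted p 0.00184). The call was also made without any 1 of GFP monocytes 1, 2 or 4 or GFP microglia 1 or 2 (adjusted p up to 0.0435). It was made with a pseudocount of 10 (adjusted p 0.000149) and with CPM scaling (0.00204), but not in DESeq2 (0.916).

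Itgax, the alpha chain of CD11c, lies next to Itgam on chromosome 7 in the RefSeq annotation, with no other protein-coding gene between them, and was low throughout. GFP monocytes had 159, 146, 293 and 143, against 38.7, 67.1, 129 and 0 in GFP microglia. KO monocytes had 258, 248 and 132, against 18.2, 172 and 0 in KO microglia, and control monocytes 253, 266 and 332, against 86.5, 0 and 0 in control microglia. GFP and control groups did not overlap, the KO groups did, and microglia varied most, with 3 of 6 Cre microglia libraries at 0. The log2 folds of 2.87 (SE 1.51), 3.78 (SE 1.98) and 5.99 (SE 1.98) were not called, with adjusted p of 0.773, 0.332 and 0.108, but the control fold was called without control microglia 1 (8.14, adjusted p 0.0268) and the GFP fold with GFP monocytes 3 and GFP microglia 3 and 4 left out (1.53, adjusted p 0.00991). Markers of other leukocytes that carry Itgax or Itgb2 were found in the monocyte libraries. The 7 dendritic cell markers summed to 1547 to 4395 in KO monocytes and 2508 to 4544 in control monocytes, against 117 to 431 in KO microglia and 23.9 to 567 in control microglia. The 12 neutrophil markers summed to 40604 to 75970 in KO monocytes and 18026 to 42377 in control monocytes, against 1374 to 4032 in KO microglia and 908 to 1925 in control microglia. Of those neutrophil markers, S100a8 alone made most of the sum in every Cre monocyte library. It was at 28295 to 47075 in KO and 10982 to 29643 in control monocytes. Ly6g was at 3.34 to 258 in KO and 0 to 10.2 in control monocytes. Mpo and Elane were at 0 in all control monocytes and Clec9a of the dendritic list likewise. In KO monocytes all 12 neutrophil and all 7 dendritic markers had a value above 0 in some library, and Elane was at 2161, 306 and 119. Summed T cell markers (6 of 8 listed) were at 92.8 to 853 in KO monocytes and 26.8 to 108 in control monocytes. In microglia they were at 110 to 157 in KO and 117 to 241 in control animals. Every control microglia library was thus above every control monocyte library. Summed NK cell markers (3 of 5 listed) were at 190 to 985 in KO and 749 to 1716 in control monocytes. In KO and control microglia they were at 22.8 to 237 and 17.6 to 41.9. The part of these cells in the values, and of microglial RNA in the Itgam values of monocytes, was not tested.

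Cd44, the hyaluronan receptor, was among the most abundant of the 9 transcripts in monocytes and scarce and uneven in microglia. GFP monocytes had 889.7, 1333, 558 and 1195, against 15.5, 9.47, 1.25 and 182 in GFP microglia (log2 5.85, SE 1.22, adjusted p 0.0119). This call was lost without the filter (adjusted p 0.0555) and with upper quartile scaling (0.143), and the log2 fold was 6.42 (adjusted p 1.7e-07) with the 3 GFP libraries of few genes left out. KO monocytes had 7598, 6058 and 7821, against 146, 412 and 3.45 in KO microglia (log2 6.78, SE 1.87, adjusted p 0.0521). Control monocytes had 9974, 8852 and 5309, against 0.703, 442 and 141 in control microglia (log2 7.35, SE 1.87, adjusted p 0.0379). No groups overlapped, and the mean ratios were 19.1 in GFP, 38.3 in KO and 41.3 in control animals. The microglia of control animals ranged from a single read to 442, and the control call was lost without control microglia 1, the single-read library (log2 4.95, adjusted p 0.0849), in edgeR (adjusted p 0.1002), with upper quartile scaling (0.0517), with only the groups compared (0.11) and in 8 further libraries left out in turn (adjusted p 0.0516 to 0.0965). The KO difference passed in DESeq2 (adjusted p 0.000667), with only the groups compared (0.0434) and without KO microglia 2 (0.0483), control microglia 1 (0.00977) or control microglia 2 (0.0387). It also passed with a pseudocount of 10 (adjusted p 0.00985) and with CPM scaling (0.00711). KO microglia 2 and control microglia 2 had the highest Itga4, Itgal and Cd44 of their groups. Summed dendritic markers were at 431 in KO microglia 2, against 117 and 415 in the other KO microglia, and at 567 in control microglia 2, against 23.9 and 163 in the other control microglia. The 8 monocyte markers summed to 2160 in KO microglia 2, against 1581 and 2497 in the others, and to 1851 in control microglia 2, against 3327 and 3350, so that list was not highest in either library. The 12 neutrophil markers summed to 4032 in KO microglia 2, against 1374 and 1965 in the others. They summed to 1925 in control microglia 2, against 1747 and 908, so this list was highest in both libraries. The part of such cells in the microglia values was not tested.

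Selplg, the selectin ligand PSGL-1, was lower in monocytes than in microglia in every design. GFP monocytes had 360.3, 493, 21.1 and 319.9, against 1973, 3418, 3722 and 3254 in GFP microglia (log2 -3.99, SE 0.71, adjusted p 0.0021). The log2 fold was -2.96 without GFP monocytes 3 and -2.75 with GFP microglia 3 and 4 left out as well (adjusted p 4.03e-05). KO monocytes had 2092, 2182 and 1861, against 8249.5, 3991 and 8603 in KO microglia (log2 -1.69, SE 0.37, adjusted p 0.0176). Control monocytes had 2870.1, 1266 and 2308, against 6070.2, 8845 and 6947 in control microglia (log2 -1.82, SE 0.37, adjusted p 0.0115). All monocyte libraries were below all microglia libraries of their design. The KO call was lost without KO monocytes 1 or 3 or KO microglia 1 or 3 (adjusted p 0.0531 to 0.0804), the control call with only the groups compared (0.0562), and the GFP call without GFP microglia 4 (0.0837) and with upper quartile scaling (0.249). The part of microglial RNA in the Selplg values of monocytes was not tested. PSGL-1 is best known on leukocytes that roll along vessels, and here its transcript was the highest of the 9 per length in all 3 groups of microglia.

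**Figure D2:**
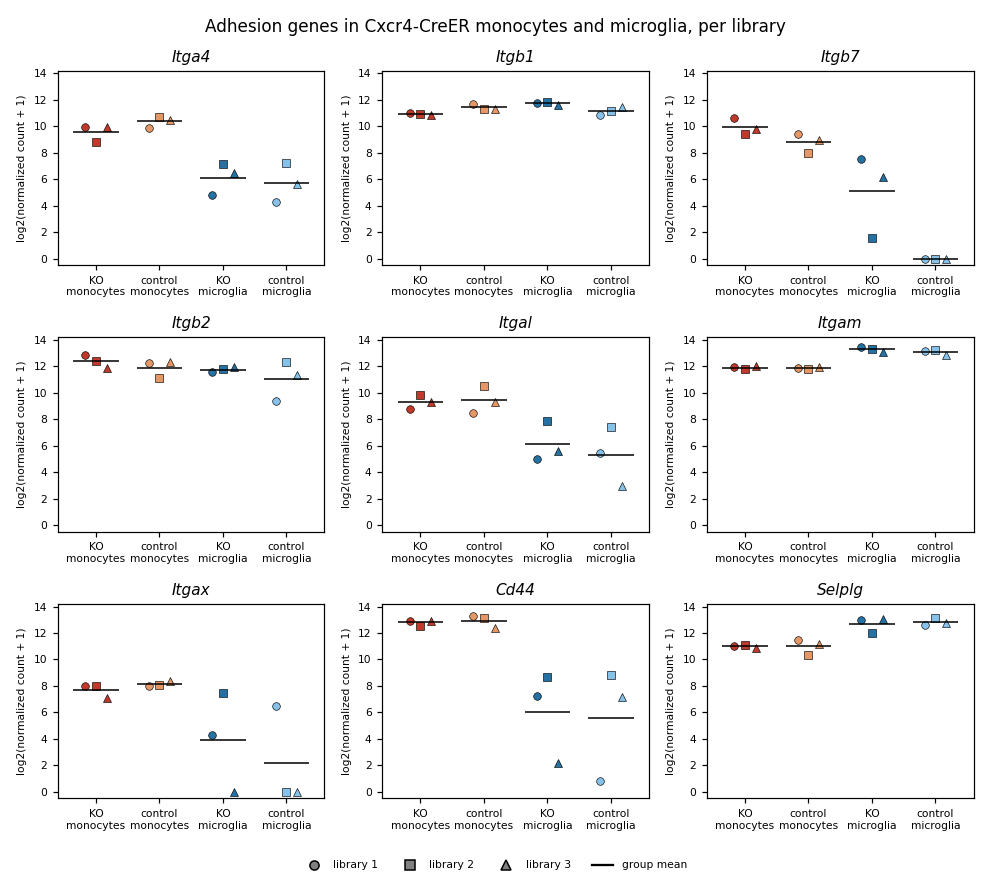
Log2(normalized count + 1) of the 9 genes (y axis, 1 panel a gene) in each library of KO monocytes, control monocytes, KO microglia and control microglia (x axis). Symbols mark the 3 libraries of a group, which are numbered within it, and lines the group mean. Itga4, Itgb7, Itgal and Cd44 stand higher in monocytes, Itgam and Selplg higher in microglia, and Itgb1 and Itgb2 differ least between the populations.

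**Figure D3:**
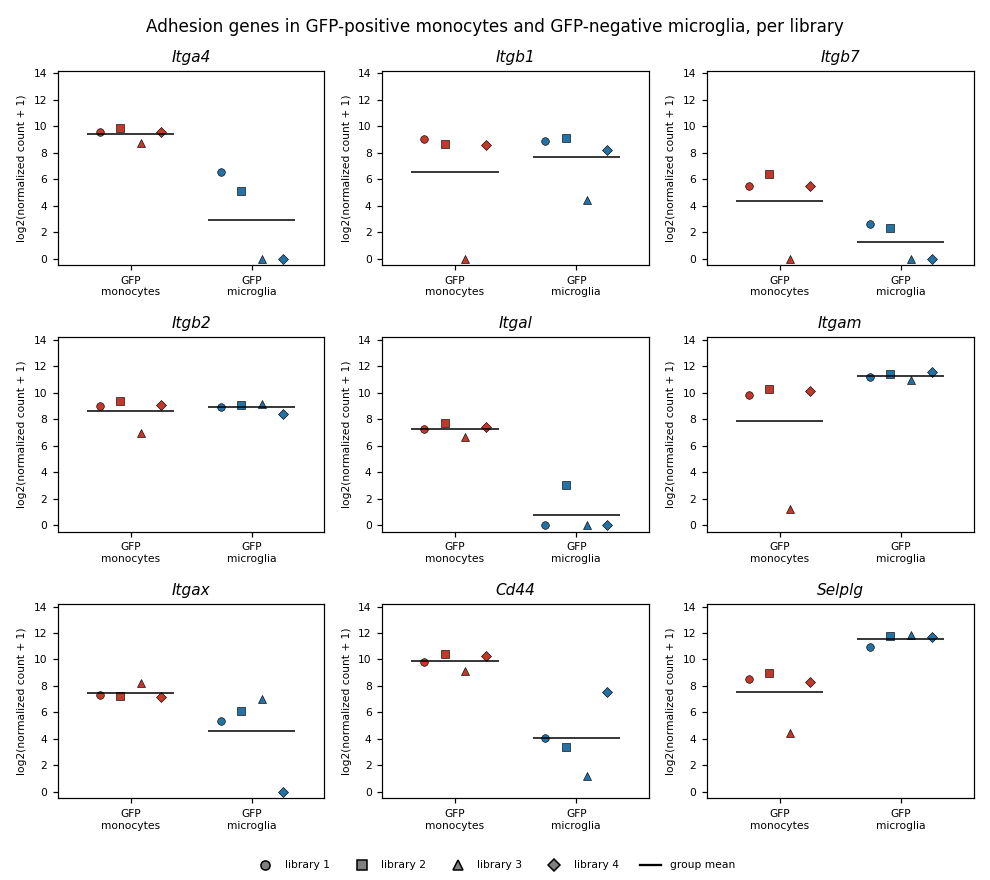
Log2(normalized count + 1) of the 9 genes (y axis, 1 panel a gene) in each of 4 libraries of GFP monocytes and 4 of GFP microglia (x axis), with lines at the group mean. The third monocyte library (triangle) is at 0 for Itgb1 and Itgb7 and near 0 for Itgam, and lies above every microglia library for Itga4, Itgal, Itgax and Cd44, with the highest Itgax of its group.

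To set the genes against each other, normalized counts were divided by the length of the longest principal transcript in GENCODE M21, from 1855 bases for Selplg to 9767 bases for Itga4. This length is an approximation, because the sources used here do not name the annotation behind the deposited counts. In KO monocytes the highest levels per kilobase were Itgb2 with 1855 ± 603, Cd44 with 1275 ± 171 and Selplg with 1102 ± 89.3 (SD), and in control monocytes Cd44 with 1433 ± 434, Itgb2 with 1363 ± 548 and Selplg with 1158 ± 439. In control monocytes these 3 genes lie within each other's spread, and in KO monocytes Itgb2 and Cd44 differ by less than the SD of Itgb2. Selplg averaged less than Cd44 in KO monocytes, but their libraries overlapped, at 1003 to 1176 for Selplg and 1079 to 1393 for Cd44. Below them came Itgam (831 ± 53 in KO and 808 ± 57.4 in control monocytes) and Itgb1 (512 ± 27.7 and 733 ± 118). The lowest were Itga4 (83.2 ± 31.7 and 138 ± 36.5) and Itgax (52.5 ± 17.2 and 70.1 ± 10.6). In KO microglia Selplg with 3745 ± 1384 per kilobase, Itgam with 2198 ± 298 and Itgb2 with 1171 ± 151 led, and in control microglia the same genes in the same order with 3929 ± 765, 1882 ± 240.1 and 956 ± 778. In GFP monocytes Cd44 (177 ± 61.4), Itgam (177 ± 121), Selplg (161 ± 107) and Itgb2 (156 ± 79.2) could not be ranked beyond their spread, whereas in GFP microglia Selplg (1667 ± 415) and Itgam (549.7 ± 101) stood apart from Itgb2 (163 ± 35). Itga4 thus showed large ratios between populations at a low level per kilobase in monocytes.

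Each alpha chain works only in a pair, so the ratio of alpha to beta transcript was taken per library, on log2(value + 1), as a description without a test and without correction for length. The Itga4 to Itgb1 ratio was -1.08, -2.10 and -0.87 in KO monocytes, against -7.01, -4.73 and -5.15 in KO microglia. In control animals it was -1.79, -0.59 and -0.84 in monocytes, against -6.61, -3.92 and -5.83 in microglia. Monocyte and microglia libraries did not overlap in either genotype, and neither did they in the GFP table, with 0.47 to 8.77 in monocytes and -8.23 to -2.40 in microglia. The Itgam to Itgb2 ratio was -0.91 to 0.15 in KO monocytes and 1.16 to 1.92 in KO microglia, and -0.36 to 0.68 in control monocytes and 0.86 to 3.81 in control microglia. Here the microglia libraries were all above the monocyte libraries, so Itgam had more normalized counts than its beta chain in every Cre microglia library. The Itgal to Itgb2 ratio was -4.05 to -2.57 in KO monocytes and -6.56 to -3.90 in KO microglia, which overlap at their edges, and -3.72 to -0.59 in control monocytes and -8.37 to -3.88 in control microglia. The Itga4 to Itgb7 ratio was -0.73 to 0.20 in KO monocytes, below all control monocytes at 0.51 to 2.71. It was -2.77 to 5.60 in KO microglia and 4.27 to 7.21 in control microglia, the last set by the absence of Itgb7 reads. Itgax to Itgb2 was -4.81 to -4.48 in KO monocytes, below -4.24 to -3.03 in control monocytes, while KO microglia (-11.93 to -4.34) and control microglia (-12.36 to -2.91) overlapped. The other ratios overlapped between KO and control monocytes, and every ratio did in microglia. Itga4, Itgb7, Itgax and Itgb2 themselves each overlapped between KO and control monocytes. How often a ratio parts KO from control among all pairs of genes was not computed.

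**Figure D4:**
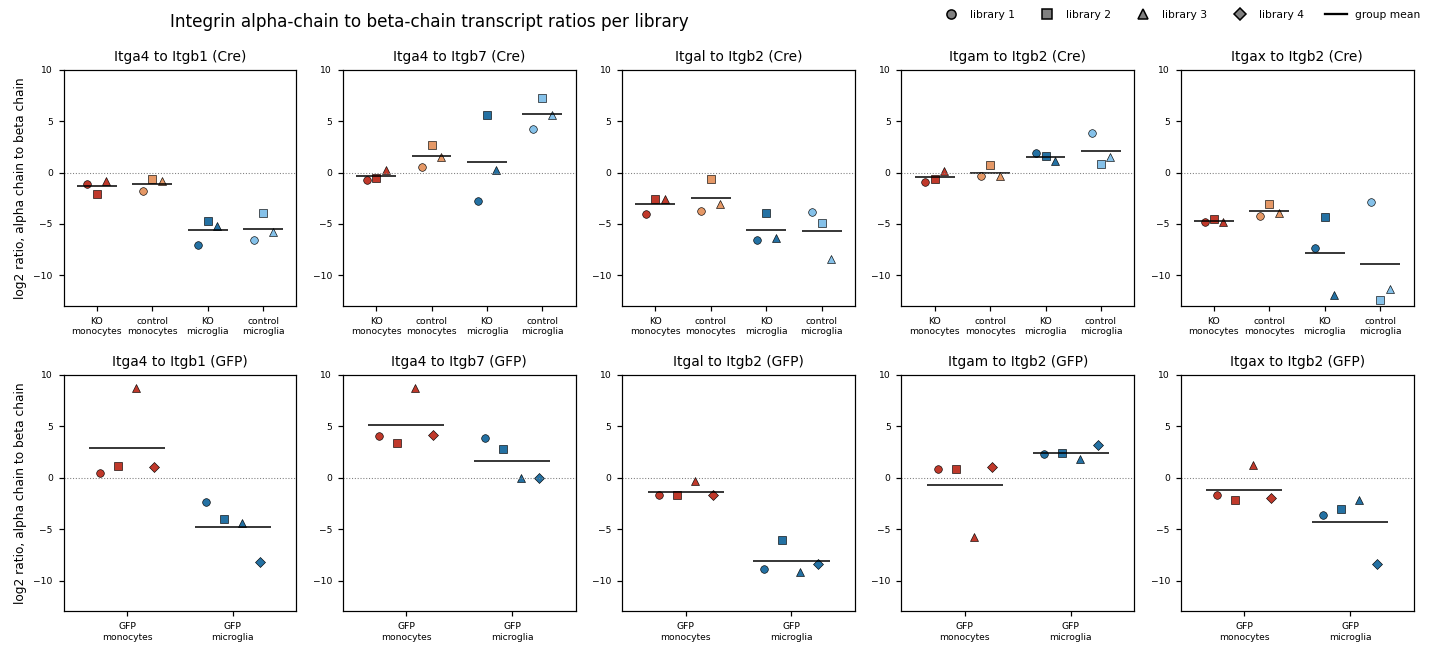
Log2 ratio of alpha chain to beta chain transcript, from log2(value + 1), per library (y axis) in KO monocytes, control monocytes, KO microglia and control microglia (upper row, x axis) and in GFP monocytes and GFP microglia (lower row). Symbols mark libraries 1 to 4 of each group, lines the group mean and the dotted line equal values. The Itga4 to Itgb1 ratio is higher, and the Itgam to Itgb2 ratio lower, in every Cre monocyte library than in every Cre microglia library of the same genotype.

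The next question was whether loss of Cxcr4 came with other adhesion genes in the monocytes that had entered the brain, or in the microglia of the same mice. None of the 9 members was called between KO monocytes and control monocytes, where limma called 0.0402% of 12432 genes and 6.08% had an unadjusted p under 0.05, none of them a member. None was called between KO microglia and control microglia, where 0.0322% of genes were called and 3.53% had an unadjusted p under 0.05, Itgb1 and Itgb7 among them. EdgeR called no gene in either comparison, and DESeq2 called 2.72% of genes with no member in monocytes and 0.869% with Itgb7 in microglia. Groups did not overlap for 1 member (Itgb1) in monocytes and for 2 (Itgb1 and Itgb7) in microglia, where 8.82% and 9.46% of all tested genes did not overlap. The median log2 fold of the 9 members was -0.13 in monocytes, against 0.05 over all tested genes, and 0.61 in microglia, against 0.05 over all.

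In monocytes, the interval was tight for Itgam, at a log2 fold of 0.04 (95% interval -0.40 to 0.48), and for Selplg, at 0.01 (-0.80 to 0.81). It was wide for Itga4, at -0.78 (-2.64 to 1.07), where KO monocytes averaged 813 ± 309.8 and control monocytes 1352 ± 357 (SD, n = 3 each). Itga4 in KO monocytes 1 and 3 was just above the lowest control library, so the groups overlapped. Cd44 had a fold of -0.13 (-4.22 to 3.97), Itgal -0.13 (-2.60 to 2.34), Itgax -0.47 (-4.80 to 3.86), Itgb2 0.49 (-0.87 to 1.85) and Itgb7 1.15 (-1.84 to 4.14). Itgb7 averaged 1052 ± 492 in KO monocytes and 478 ± 212 in control monocytes, and the groups overlapped at 668 in the KO and 673 in the control group. These intervals leave room for changes of more than 2-fold either way in Itga4, Cd44, Itgal, Itgax and Itgb7, so for them a change of that size is not excluded. That of Itgb2 leaves room for a rise of more than 2-fold, and that of Itgb1 (-1.07 to 0.06) for such a fall. The 12 neutrophil markers summed to 75970, 50827 and 40604 in KO monocytes and 18026, 42377 and 32829 in control monocytes. KO monocytes 1 had the highest sum, Itgb2 and Itgb7 of its group. Control monocytes 2 had the highest sum of its group but the lowest Itgb2 and Itgb7. The part of neutrophil RNA in these values was not tested. In microglia each gene had the same SE as in monocytes, because both comparisons come from 1 fit. The folds there were 0.22 (-0.22 to 0.67) for Itgam and -0.13 (-0.94 to 0.67) for Selplg. The interval of Itgb1 was narrower than that of Selplg in both populations.

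Itgb1 was the member whose KO and control libraries parted in both populations, in opposite directions. KO monocytes averaged 1954 ± 106 and control monocytes 2795 ± 451 (log2 -0.51, SE 0.26, p 0.0744 unadjusted, adjusted p 0.847 in limma). KO microglia averaged 3466 ± 270.0 and control microglia 2297 ± 453 (log2 0.61, SE 0.26, p 0.0367 unadjusted, adjusted p 1.0 in limma). All 3 KO monocyte libraries were below all 3 control monocyte libraries, and all 3 KO microglia libraries above all 3 control microglia libraries. The interaction of genotype and population had a log2 size of -1.12 (SE 0.37, 95% interval -1.91 to -0.32, p 0.0103 unadjusted) and did not pass over all genes in limma (adjusted p 0.945), where 0% of genes were called and 4.75% had an unadjusted p under 0.05, Itgb1 the only member among them. DESeq2 called the interaction of Itgb1 (adjusted p 0.021) and of Itgb7 (adjusted p 0.00483), and 2.22% of all genes. Of 12432 tested genes, 56 (0.45%) had KO and control apart without overlap and in opposite directions in the 2 populations. In 28 (0.225%) KO was below control in monocytes and above it in microglia, as for Itgb1, 1 of 9 members examined. The 4 astrocyte markers summed to 2289, 2596 and 2298 in KO microglia and 1325, 1463 and 1750 in control microglia, without overlap. Oligodendrocyte sums overlapped (1423 to 1804 in KO and 936 to 1785 in control microglia), and platelet sums parted the other way (241 to 355 and 485 to 831). The part of such cells in Itgb1 was not tested.

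Itgb7 in microglia was the other member whose groups did not overlap. KO microglia had 204, 1 and 84 reads and control microglia none, and the mean of KO microglia was at least 102-fold higher than the floor of 3 reads over the control group, or at least 43.8-fold without KO microglia 1. The limma test gave p 0.00302 unadjusted and an adjusted p of 0.85, and DESeq2 called it (adjusted p 9.89e-06). The 8 monocyte markers summed to 1581, 2160 and 2497 in KO microglia and 3327, 1851 and 3350 in control microglia, with Ly6c2, Vcan and Chil3 at 0 in all KO microglia. Within that list Ccr2 went the other way, at 72, 120 and 81 in KO microglia and 22.5, 13.8 and 5.98 in control microglia, and KO microglia 2, with the most Ccr2, was the library with a single Itgb7 read. The part of monocyte RNA in Itgb7 was not tested.

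**Figure D5:**
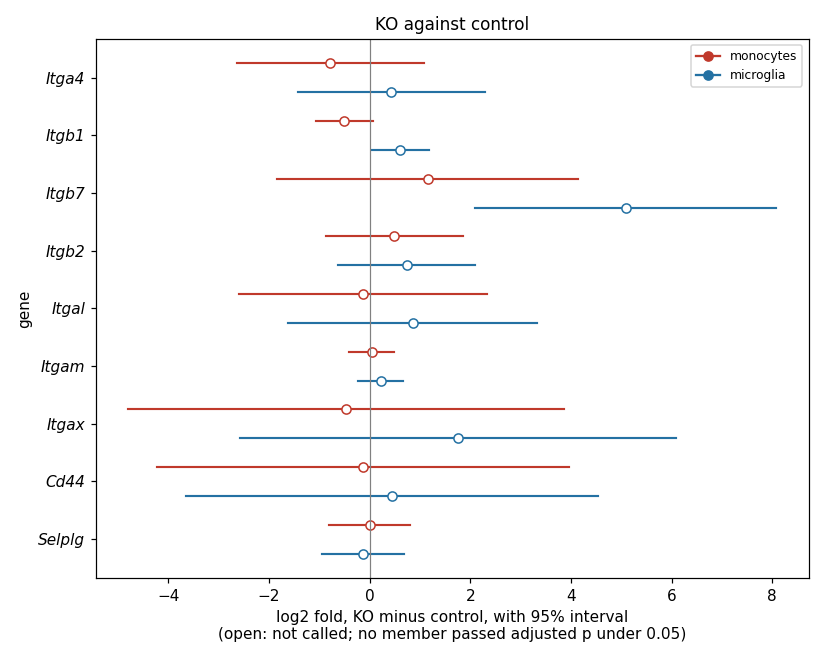
Log2 fold of KO minus control (x axis) for each gene (y axis) in monocytes and microglia, with 95% intervals; open points were not called. For Itgb1 the monocyte point lies at -0.51 and the microglia point at 0.61, and for Itgam and Selplg both intervals are narrow around 0.

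Other genes of adhesion were read from 4 lists. Of 19 further integrin chains, 10 were tested in the Cre table and 6 in the GFP table. Itgb3, which forms the vitronectin receptor with Itgav, was called lower in control monocytes, at 0.689 ± 0.645 normalized counts (2 reads), against 452 ± 46.3 in control microglia (adjusted p 0.0109). It was not called between KO monocytes and KO microglia (log2 -3.61, SE 1.62, adjusted p 0.248) or in the GFP table (log2 -6.11, SE 1.80, adjusted p 0.123), and no other chain of this list was called in any comparison. The median log2 fold of the list was -0.81 in GFP, -0.45 in KO and -0.36 in control animals for monocytes minus microglia, against 0.51, -0.25 and -0.24 over all tested genes.

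The medians of the 3 lists that follow, for the same comparisons in the same order, were 0.38, 0.16 and 0.40 for activators and adaptors, 0.10, -2.11 and -1.33 for ligands, and 0.65, 0.17 and 0.88 for selectins and their enzymes. Among 27 activators and adaptors, which switch integrins on or tie them to actin, 20 were tested in the GFP table and none was called. Of 24 tested in the Cre table, 2 were higher and 2 lower in KO monocytes than in KO microglia, and 2 were higher in control monocytes than in control microglia. Fgr, a Src-family kinase of integrin signalling, averaged 1116 ± 255 in KO monocytes and 89.2 ± 69.4 in KO microglia (log2 4.23, SE 1.04, adjusted p 0.0311), and 634 ± 112 in control monocytes and 1.88 ± 1.98 in control microglia (log2 8.05, SE 1.04, adjusted p 0.000739). Cytip, which binds cytohesin and restrains adhesion in lymphoid and dendritic cells, averaged 6268 ± 2366 in KO monocytes and 37.1 ± 39.5 in KO microglia (adjusted p 0.00213), and 5029 ± 2458 in control monocytes and 37.7 ± 24.9 in control microglia (adjusted p 0.00676). Both stood apart in every library. Tln2, a talin that links integrin tails to actin, averaged 41.3 ± 26.2 in KO monocytes and 590.3 ± 286 in KO microglia (log2 -3.86, SE 0.94, adjusted p 0.0299). Apbb1ip, the Rap1 effector RIAM that brings talin to integrins, averaged 310.2 ± 147 in KO monocytes and 1551 ± 220 in KO microglia (log2 -2.45, SE 0.63, adjusted p 0.0386). In control animals neither Tln2 nor Apbb1ip was called, though monocytes and microglia did not overlap. There Tln2 had a log2 fold of -3.39 (adjusted p 0.0549) and Apbb1ip of -1.89 (adjusted p 0.112).

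Ligands and counter-receptors of these integrins were also found in the leukocytes themselves. Of 10 tested in the GFP table, 2 were higher in monocytes: the matrix protein Thbs1, at 5974 ± 2859 in GFP monocytes and 45 ± 49.4 in GFP microglia (adjusted p 1.57e-05), and osteopontin, Spp1, which binds Itga4 integrins and Cd44, at 1902 ± 862 in GFP monocytes and 184 ± 157 in GFP microglia (adjusted p 0.0224). Of 15 tested in the Cre table, 3 were higher and 2 lower in KO monocytes than in KO microglia, and 3 higher and 3 lower in control monocytes than in control microglia. Fibronectin, Fn1, the matrix ligand of the Itga4 and Itgb1 pair, averaged 8861 ± 2053 in KO monocytes and 770.2 ± 353 in KO microglia (log2 3.60, SE 0.62, adjusted p 0.00465), and 9706 ± 4795 in control monocytes and 895 ± 626 in control microglia (log2 3.68, SE 0.62, adjusted p 0.00402). Vcam1, the endothelial ligand of the same pair, was called lower in KO monocytes than in KO microglia (log2 -2.11, SE 0.42, adjusted p 0.0106) and in control monocytes than in control microglia (log2 -1.56, SE 0.42, adjusted p 0.048), and was not called in the GFP table (log2 -0.53, SE 1.64, adjusted p 0.999). Thbs1 had log2 folds of 6.41 (SE 0.83) in KO and 7.70 (SE 0.83) in control animals, and Spp1 of 2.70 (SE 0.38, adjusted p 0.00144) in KO and 1.68 (SE 0.38, adjusted p 0.0216) in control animals. Summed platelet markers, 5 genes of a cell rich in Thbs1, were at 4414 to 6660.4 in KO monocytes and 241 to 355 in KO microglia, and at 3313 to 12219 in control monocytes and 485 to 831 in control microglia, with Gp9 at 0 in all Cre monocytes. The part of platelets in Thbs1 was not tested. Jam2, a junction protein, averaged 36 ± 61.2 in control monocytes and 607 ± 209 in control microglia (adjusted p 0.0217). It was not called in KO animals (log2 -4.44, SE 1.49, adjusted p 0.11) or in the GFP table (log2 -6.36, SE 1.85, adjusted p 0.12). Its groups did not overlap there either. Cd34, a sialomucin that can carry selectin ligands, was lower in KO monocytes (log2 -4.21, SE 0.90, adjusted p 0.0161) and in control monocytes (log2 -3.37, SE 0.90, adjusted p 0.0468) than in the microglia of the same genotype.

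Selectins and the enzymes that decorate their ligands bear on Selplg, because PSGL-1 binds selectins only when it carries the right sugars. None of 10 tested genes was called in the GFP table. Of 12 tested in the Cre table, 3 were higher and 2 lower in KO monocytes than in KO microglia, and 3 higher and 1 lower in control monocytes than in control microglia. Cd24a, a ligand of P-selectin, averaged 3450.2 ± 575 in KO monocytes and 3874 ± 267 in control monocytes and had no read in any Cre microglia library (adjusted p 7.87e-06 and 8.12e-06). B4galt1, a galactosyltransferase of the selectin-ligand sugars, was higher in KO monocytes than in KO microglia (log2 0.89, SE 0.18, adjusted p 0.0114) and in control monocytes than in control microglia (log2 0.95, SE 0.18, adjusted p 0.00836). The sulfotransferase Chst2 was lower in control monocytes (log2 -5.34, SE 1.04, adjusted p 0.00965) and was not called between KO monocytes and KO microglia (log2 -1.93, SE 1.04, adjusted p 0.349). Gcnt1, the core-branching enzyme that primes PSGL-1, averaged 387 ± 109 in KO monocytes and 1549.7 ± 351 in KO microglia (log2 -2.02, SE 0.51, adjusted p 0.0359), and the sialyltransferase St3gal6 446 ± 439 in KO monocytes and 3552 ± 637 in KO microglia (log2 -3.45, SE 0.67, adjusted p 0.00928). Neither was called between control monocytes and control microglia (Gcnt1 log2 -0.53, adjusted p 0.625, and St3gal6 log2 -2.20, adjusted p 0.0798) or in the GFP table (adjusted p 0.949 and 0.351), where Selplg was called lower. No gene of the 4 lists was called between KO and control in monocytes or in microglia.

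For each member the tested genes of most similar course over the 12 Cre libraries were read out by Pearson's r of log2(value + 1), as a description over libraries that fall into 2 populations. Itga4 ran closest to Prdx6 (r 0.959) and S100a9 (r 0.956), the second of which is on the neutrophil marker list. Itgam ran closest to Hpn (r 0.985) and Lamb2 (r 0.983), and Selplg to Tmem175 (r 0.966) and Mlxipl (r 0.957). Cd44 was closest to Osbpl8 (r 0.961) and Jarid2 (r 0.95), Itgal to Sulf2 (r 0.94) and Xylt1 (r 0.935), and Itgax to Id3 (r 0.972) and Cxcl1 (r 0.948). Itgb1 was closest to Ercc2 (r 0.908) and Eci2 (r 0.906), Itgb2 to Txnl4a (r 0.952) and Fam32a (r 0.951), and Itgb7 to Pde7b (r 0.965) and Cav2 (r 0.955). No member was among the 2 closest genes of another member, the beta chains and their alpha partners included.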

How the data were processed

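RNA of 20 libraries was given in 2 tables of gene-level signal, the normalized counts that the authors deposited: reads divided by a DESeq2 size factor per library, per the submitters' processing notes. Beside DESeq2, these notes name CASAVA 1.82 for GFP libraries and, for Cre libraries, bcl2fastq 2.20 with kallisto. Per the labels' protocols, RNA was extracted with Qiagen miRNeasy, and libraries were made from total RNA with Nugen Ovation SoLo (GFP) or from polyA RNA with SMART-Seq2 (Cre). The sources used here give no genome build, annotation or strand setting. All values above 0 were whole multiples, within 0.01, of what a single read is worth (100% of values), so whole reads were recovered. In the Cre table, 678 altered gene names were restored and 24 that had turned into dates were kept.

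Genes with 10 or more normalized counts in at least 4 GFP or 3 Cre libraries were tested (7706 and 12432 genes). The test was limma-trend (limma 3.58.1, R 4.3.3, two-sided) on log2(value + 1), with 1 fit a table. Calls needed an adjusted p under 0.05, with the Benjamini-Hochberg adjustment made across every tested gene of the table. On this scale the pseudocount draws the folds of low genes towards 0, while a library at 0 draws down the mean of its group, so a log2 fold can lie below or above that of the mean counts. Folds against a group without reads are bounds against 3 reads over the group. They cover counting error only, because PCR copies of a molecule were not told apart. The script was tested on simulated data. Alternatives were a pseudocount of 10, no filter, upper quartile and CPM scaling, edgeR 4.0.16 and DESeq2 1.42.0 on the recovered reads, the animal as a block, fits without the 3 GFP libraries of fewer than 6000 detected genes, with only the groups compared, and without each library in turn.

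The pairing rests on the animal numbers in the labels. Deviations from the group means of paired libraries correlated at 0.238, 0.198, 0.127 and -0.113 in the GFP table and at -0.0555 to 0.0095 in the Cre table. Members and lists were chosen with earlier results of these data known. Named were the 9 members, Cxcr4 and, per list and comparison, up to 4 called genes of largest fold without overlap between groups, and per member the 2 genes of highest correlation, predicted genes left out. Values of marker genes were chosen after they were seen, as were the neighbouring genes. So were Itgb3, Gcnt1, St3gal6, Tln2, Apbb1ip, Jam2 and Chst2 in the comparisons where they were not called. Vcam1, Spp1 in control animals and B4galt1 in KO animals were chosen in the same way. The values of 1 gene of the lists are not reported here.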

Additional observations from a re-analysis of the deposited data

Results flagged for a closer look

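Among 28 groups of 4 GFP libraries examined (9 genes and 5 chain ratios in each population), 8 had a library far from the other 3 by Dixon's test. The nominal rate of 1 group in 20 holds for independent groups without ties. The chain ratios reuse the same genes and libraries, and 3 values at 0 fix the result for Itgal in GFP microglia. The count of 8 can therefore not be set against that rate. GFP monocytes 3, in which 3029 genes were detected, accounted for 6 of the 8. It had the highest Itgax, at 293 normalized counts, where its group otherwise had 143 to 159. With no read of Itgb1 or Itgb7 and 1 read of Itgam, it also had the highest log2 ratios of Itga4 to Itgb1 (8.77) and of Itga4 to Itgb7 (8.77), the highest Itgal to Itgb2 (-0.32) and Itgax to Itgb2 (1.22), and the lowest Itgam to Itgb2 (-5.77). Cd44 was at 182 in GFP microglia 4, where its group otherwise had 1.25 to 15.5, and Itgal at 7.32 in GFP microglia 2, the deepest microglia library of that table, against 0 in the others.

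Itgb1 had every KO library below the controls in monocytes and above them in microglia, in opposite directions in the 2 populations. The interaction had a log2 size of -1.12 and missed the threshold over all genes in limma (adjusted p 0.945) and passed in DESeq2 (adjusted p 0.021).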

How the results depend on the processing

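Of the members called in the GFP table, 3 in the reported fit, 5 were called with a pseudocount of 10, 1 without the filter, 0 with upper quartile scaling, 6 when GFP monocytes 3 and GFP microglia 3 and 4 were dropped together, and 1 to 4 with each library left out. Between KO monocytes and KO microglia the count of 3 was 5 with a pseudocount of 10, 6 with CPM scaling, 6 in DESeq2 and 1 to 4 with each library left out. Between control monocytes and control microglia the count of 5 was 3 with only the groups compared and 4 to 6 with each library left out. DESeq2 called 1 member, Itgb7, between KO microglia and control microglia, and 2, Itgb1 and Itgb7, for the interaction, where the reported counts were 0; the cause was not tested. No called fold changed sign in any alternative. The animal as a block ended the call of Itga4 in the GFP table and no other member's call.

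Over all genes, the GFP count of 70 (32 higher, 38 lower) was 198 with a pseudocount of 10, 38 without the filter, 13 (11 and 2) scaled by the upper quartile, 122 (70 and 52) scaled to CPM, 181 in DESeq2 (109 and 72), 1198 with those 3 libraries dropped, and 33 (without GFP microglia 3) to 129 (without GFP monocytes 3) with each library left out. The KO count of 849 (479 and 370) was 522 (352 and 170) in edgeR, 1570 in DESeq2 and 482 (without KO microglia 3) to 1013 with each library left out, and its split was 405 and 484 with CPM scaling. The control count of 810 (430 and 380) was 478 in edgeR, 1614 in DESeq2 and 386 with only the groups compared, and its split was 328 and 460 with upper quartile scaling. Upper quartile scaling moved the median log2 fold of all genes to -0.41 in KO and -0.49 in control animals. KO against control gave 5 genes in monocytes and 4 in microglia, 0 in edgeR or with only the groups compared, 338 and 108 in DESeq2, and 1 to 30 and 0 to 8 with each library left out. The interaction gave 0 genes (0 to 1 with each library left out), 590 at an unadjusted p under 0.05, 0 in edgeR and 276 in DESeq2.

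The 3 GFP libraries of few detected genes limit that table most, and with 3 libraries a group the low members (Itgax, Itgb7 and Cd44 in microglia) had the widest intervals.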

Other observations

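The genes beside the members on their chromosomes were looked up in the RefSeq annotation, and those described here were chosen after their values were seen. Selplg lies next to Tmem119, a transmembrane protein that marks microglia, with no other protein-coding gene between them. Tmem119 averaged 84.3 ± 60 in GFP monocytes and 1641 ± 715 in GFP microglia (log2 -5.47, SE 1.17, adjusted p 0.0151). It averaged 258 ± 139 in KO monocytes and 4542 ± 1088 in KO microglia (log2 -4.25, SE 0.67, adjusted p 0.00276), and 579 ± 634 in control monocytes and 5349 ± 867 in control microglia (log2 -3.78, SE 0.67, adjusted p 0.00571). Both neighbours were thus lower in monocytes in all 3 comparisons, while Coro1c, on the other side of Selplg, was not called in any (adjusted p 0.81, 0.408 and 0.187 in GFP, KO and control animals). Itgam and Itgax, also neighbours, had folds of opposite sign in all 3 comparisons, of which those of Itgam in KO and control animals were called.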
